A study of Mus musculus with 2 samples.

Results

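The 10 genes described here encode proteins that osteoclasts use to form, to fuse and to dissolve bone: Tnfrsf11a, Nfatc1, Calcr, Itgb3, Dcstamp, Ocstamp, Atp6v0d2, Car2, Acp5 and Ctsk. They are 10 of 22180 genes with a value on the arrays. They were chosen from a list of osteoclast genes by symbol, with their signals on both arrays and the difference between the arrays already known, so every difference given for them is a description and none is a test. Each of the 10 was read by 1 probe set that the platform's table assigns to that gene alone.

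Osteoclasts are the cells that resorb bone, and they arise when cells of the monocyte and macrophage lineage fuse into large cells with many nuclei. The receptor RANK (Tnfrsf11a), once bound by its ligand, raises the transcription factor NFATc1, which with AP-1, PU.1 and MITF switches on the genes of fusion and resorption. The mature cell seals off a patch of bone through an integrin, acidifies it with a vacuolar proton pump fed by carbonic anhydrase, and digests the exposed matrix with cathepsin K. RAW264.7, an established mouse macrophage cell line, is widely used to study this process because it can be turned into osteoclast-like cells.

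The study had 2 groups with 1 Affymetrix array each, wildtype RAW264.7 cells and RAW264.7 cells of HuR-deficient genotype. HuR, the product of Elavl1, binds mRNAs at AU- and U-rich stretches and is known to protect many of its targets from decay. Both cultures had received poly(I:C) HMW, a long synthetic double-stranded RNA that mimics viral RNA, at 1 mg/ml as the labels state it, with lipofectamine 2000 for 8 hours, and both were grown in DMEM with 10% FBS. The sources used here do not give how HuR was removed or whether the deficient cells were 1 clone. The labels name no osteoclast-inducing ligand, and cells without poly(I:C) were not analysed here. The values therefore show how 2 stimulated macrophage cultures differed and not the induction of an osteoclast programme.

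With 1 array per group there is no spread between replicates and no significance test between the groups. All differences below are log2 values, the array labelled HuR-deficient minus the wildtype array, and all levels are log2 RMA signals. A gene passed the signal floor when the higher of its 2 signals reached 4.38, the median of all gene signals. The robust SD of the difference, taken over the 500 genes closest in mean signal, is given beside some values as a scale, and it is not an error between cultures. Elavl1 itself read 7.68 in wildtype and 7.75 on the other array, a difference of 0.07, so the array is called "labelled HuR-deficient" throughout. Where the probe set lies relative to the disrupted part of Elavl1 is not known here, and a probe set outside that part would not check the label. Of 11 macrophage markers 10 passed the floor, with median signals of 8.32 (wildtype array) and 8.65 (the other array), against 3 of 9 osteoblast and stromal markers (medians of 3.64 and 3.86). Of 6 lymphocyte markers 3 passed, and their highest signals were 4.37 on the wildtype array and 4.62 on the other.

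Atp6v0d2 and Car2, which serve the same step of acid secretion, stood at opposite ends of the data. In the array labelled HuR-deficient, Car2 was 5.98-fold higher. Atp6v0d2 was lower there by 21.1-fold as read, but its signal of 2.97 lay below the floor and was not shown to be above background. Taken only from the wildtype signal down to the floor, its difference was -2.99. Acp5, Dcstamp and Nfatc1 had smaller negative differences, Ocstamp a smaller positive one, and Tnfrsf11a differed little. Ctsk, Itgb3 and Calcr had signals below the floor on both arrays. In RNA from a whole culture, fewer cells that express a gene and less of its RNA per cell cannot be told apart.

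Of the 10 genes, 7 passed the floor. Among these, 1 was at least 2-fold higher (Car2) and 1 at least 2-fold lower (Atp6v0d2), where 0.882% of the 11905 genes passing the floor were that much higher, 1.11% that much lower and 1.99% either. At 1.5-fold, 2 were higher (Car2 and Ocstamp) and 3 lower (Atp6v0d2, Acp5 and Dcstamp), beside 5.44% of all such genes higher, 5.32% lower and 10.8% either. Since the genes were picked with these differences known, the counts are not read against those shares. Over all 10 the median difference was -0.30, beside 0.00 for all genes. Over the 7 that passed it was -0.56, but Atp6v0d2 passed only through its wildtype signal. When both arrays had to reach the floor, Atp6v0d2 dropped out, 0 of the 10 were 2-fold lower and the median was -0.14.

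**Figure D1:**
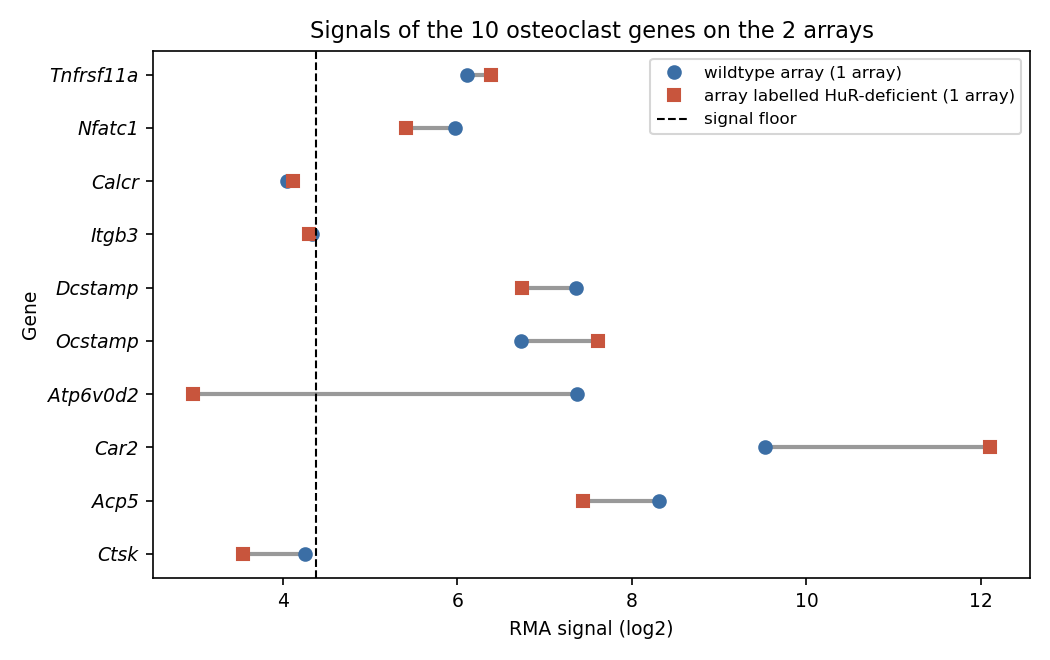
Log2 RMA signal (horizontal axis) of each of the 10 osteoclast genes on the wildtype array (circles) and that labelled HuR-deficient (squares), 1 array per group and therefore no error bars, with the signal floor of 4.38 as a dashed line. Atp6v0d2 runs from 7.37 to 2.97 across the floor and Car2 from 9.52 to 12.10, while Ctsk, Itgb3 and Calcr lie below the floor on both arrays.

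Promoter windows from RefSeq (build GRCm38.p6) were found for 4 of the 10 genes, Tnfrsf11a, Ctsk, Calcr and Acp5. The windows of Ctsk and Acp5 are shown because these genes encode the matrix-digesting protease and the marker phosphatase of osteoclasts. Acp5 had a lower signal on the array labelled HuR-deficient, Ctsk was below the floor on both arrays, and Tnfrsf11a, shown beside them, differed little. The choice was made with these values known, and whether the motifs go with any difference was not tested. Each window runs over the 250 bases before a transcription start, on the strand of the gene and 5′ to 3′. Capitals mark matches, on either strand, to TGGAAA (core of NFAT sites), TGANTCA (AP-1), GAGGAA (core of PU.1 sites) or CATGTG (a box bound by MITF). Of the 3 Acp5 windows, the only one with such a match is shown. The Ctsk window lies at chr3:95498960-95499209 on the plus strand, the Acp5 window, that of the third of 3 listed starts, at chr9:22130599-22130848 on the minus strand, and the Tnfrsf11a window at chr1:105780473-105780722 on the plus strand.
Ctsk: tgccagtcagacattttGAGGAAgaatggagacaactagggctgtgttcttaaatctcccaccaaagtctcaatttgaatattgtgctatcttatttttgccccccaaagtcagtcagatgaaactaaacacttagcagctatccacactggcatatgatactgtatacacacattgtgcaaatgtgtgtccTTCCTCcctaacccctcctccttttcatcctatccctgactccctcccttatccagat
Acp5: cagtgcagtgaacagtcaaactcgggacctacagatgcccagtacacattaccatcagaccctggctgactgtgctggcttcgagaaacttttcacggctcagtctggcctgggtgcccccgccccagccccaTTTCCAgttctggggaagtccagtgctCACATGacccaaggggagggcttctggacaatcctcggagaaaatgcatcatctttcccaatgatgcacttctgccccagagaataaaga
Tnfrsf11a: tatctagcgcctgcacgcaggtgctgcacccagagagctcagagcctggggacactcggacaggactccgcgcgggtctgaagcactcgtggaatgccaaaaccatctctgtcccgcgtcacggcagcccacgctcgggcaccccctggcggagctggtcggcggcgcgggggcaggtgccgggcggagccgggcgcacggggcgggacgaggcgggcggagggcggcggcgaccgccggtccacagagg

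The Ctsk window held 2 matches to the PU.1 core, which begin 233 and 58 bases before the start. The Acp5 window held 1 match to the NFAT core, 117 bases before the start, and 1 to the MITF box, 90 bases before it. No window of Tnfrsf11a or Calcr, and neither of the other 2 Acp5 windows, held any of the 4 motifs. Of 32851 mouse promoter windows of this length, 18.6% held the NFAT core, 6.75% the AP-1 motif, 23.3% the PU.1 core and 12.3% the MITF box, so matches of this kind are frequent. They describe letters only. The Tnfrsf11a window was 73.6% G and C, against 43.2% for Ctsk and 54.4% for Acp5.

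The 3 genes of surface receptors had the smallest differences of the 10. Tnfrsf11a, which encodes RANK, the receptor whose ligand starts osteoclast formation, read 6.11 on the wildtype array and 6.39 on that labelled HuR-deficient. Its difference of 0.28 was below the robust SD of 0.33 among genes of like signal. Calcr, which encodes the calcitonin receptor through which calcitonin restrains resorption, had signals of 4.05 and 4.12, both under the floor, so no level above background is shown on either array. Itgb3, the beta 3 chain of the vitronectin receptor that anchors osteoclasts to bone, read 4.34 and 4.30, just under the floor and almost equal. Its partner chain gene Itgav passed the floor with 6.35 and 6.29, although a second probe set of Itgav differed by 0.47.

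Some genes related to these receptors varied more, while Itgb1 differed by only -0.10. Itgb7, an integrin beta gene of leukocytes, read 5.90 and 4.87 and was just past 2-fold lower (-1.03), while Itgb5 differed by 0.73 and Itgb2 by -0.56. The related receptor genes Tnfrsf1a and Cd40 differed by 0.58 and 0.55, on the same side as Tnfrsf11a, and Tnfrsf21 by -0.54. Tnfrsf21 passed the floor only through its wildtype signal. Calcrl, a relative of Calcr that passed the floor, read 6.51 and 6.70.

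Nfatc1, the master transcription factor of osteoclast formation, read 5.97 on the wildtype array and 5.41 on that labelled HuR-deficient. The difference of -0.56 was 1.69 times the robust SD of genes of like signal. It ranked 691st from the lowest of 11905 genes. The other NFAT genes had small differences on the same side, each below the robust SD of genes of like signal. They ran from -0.29 for Nfatc3 to -0.14 for Nfat5. Nfatc2, just over the floor on the wildtype array only, differed by -0.20, and Nfatc4, below the floor on both arrays, by -0.19. None of the 4 reached the size seen for Nfatc1.

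The fusion genes Dcstamp and Ocstamp, which encode multi-pass membrane proteins that osteoclast precursors need in order to merge, differed in opposite directions. Dcstamp read 7.36 on the wildtype array and 6.73 on that labelled HuR-deficient, a difference of -0.62 or 1.91 times the robust SD of genes of like signal. Ocstamp read 6.72 and 7.61, a difference of 0.88 or 2.80 times that SD, and ranked 168th from the highest. Both genes passed the floor on both arrays, and neither reached 2-fold.

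Atp6v0d2 encodes the d2 subunit of the membrane sector of the vacuolar proton pump, an isoform that osteoclasts and some macrophages carry and that is also known to be needed for osteoclast fusion. It read 7.37 on the wildtype array and 2.97 on that labelled HuR-deficient, a difference of -4.40. This was the second most negative difference of the 11905 genes passing the floor, between those of the chemokine gene Ccl2 (-4.49) and of Rgs1 (-3.52), the genes most like it in the only pattern that 2 arrays give. The size of this difference is uncertain because of the low signal on the array labelled HuR-deficient.

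The d1 subunit gene Atp6v0d1, the form made in most cells, read 8.01 and 7.91, a difference of -0.10. A further 6 pump genes in the lists of osteoclast genes were measured, and all 7, Atp6v0d1 included, had a negative difference, with a median of -0.30 and none at 2-fold. For comparison, 5783 of the 11905 genes passing the floor had a negative difference. The differences of Atp6v0d1, Tcirg1 and Atp6ap1 were smaller than the robust SD of genes of like signal. Among the 7, the most negative were the catalytic subunit gene Atp6v1a at -0.93 (6.16 against 5.23) and Atp6v1h at -0.72 (7.52 against 6.80). Tcirg1, which encodes the a3 subunit that osteoclasts place at the bone-facing membrane, read 5.67 and 5.50, a difference of -0.17. The difference of Atp6v0d2 thus lay far beyond that of each of these 7 genes.

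Car2 encodes carbonic anhydrase 2, the cytosolic enzyme that makes protons for the pump. It read 9.52 on the wildtype array and 12.10 on that labelled HuR-deficient, a difference of 2.58, and both signals stood well over the floor. Only 2 of the 11905 genes passing the floor had a more positive difference. Next to it in that order were Gstt4 (4.55) and Klk8 (2.33). The robust SD of genes of like signal was 0.20, so the difference was 12.6 times as large, in 1 pair of arrays.

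Other carbonic anhydrase genes did not show a difference of that size. Car13 read 7.98 and 8.19, a difference of 0.21, and was the only one of the 4 examined that passed the floor. Car1, Car3 and Car4 were below the floor on both arrays, with differences of 0.50, 0.31 and 0.03. In the RefSeq gene order Car3 and Car1 are the measured neighbours of Car2 on one side. On the other lie Gm9733 (5.65 against 4.23, difference -1.42) and Sirpb1a (7.44 against 5.54, difference -1.91), both more than 2-fold lower. Gm9733 passed the floor only through its wildtype signal.

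**Figure D2:**
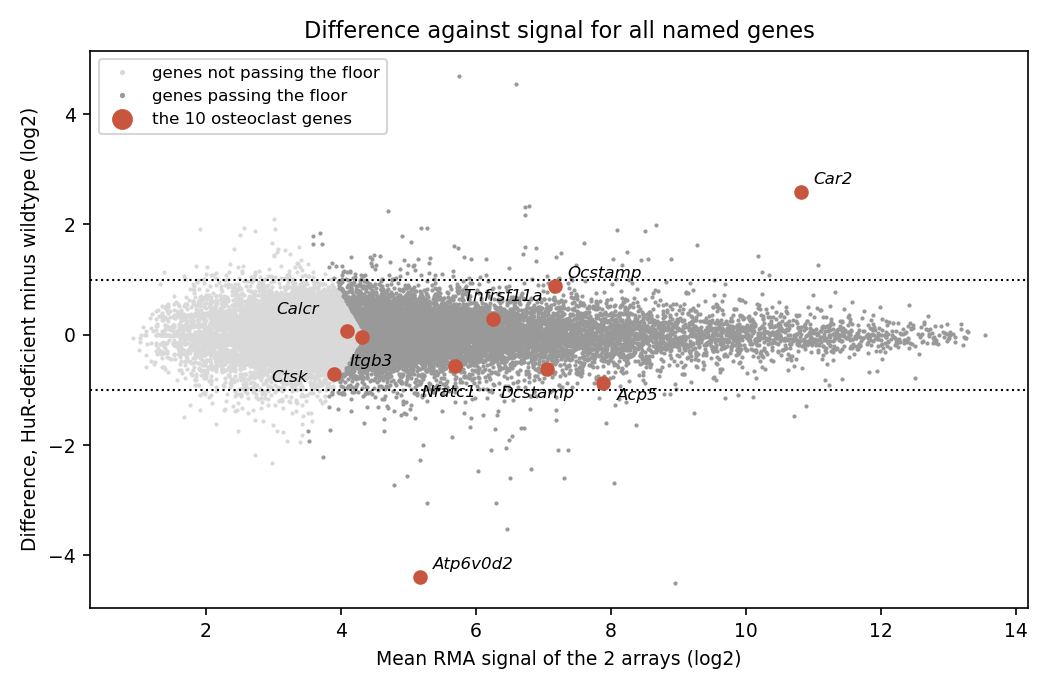
Difference between the arrays (vertical axis, log2, HuR-deficient minus wildtype) against the mean RMA signal (horizontal axis, log2) for the 22180 genes with a value, with genes passing the floor in darker grey, the 10 osteoclast genes as large points and 2-fold as dotted lines. Car2 (2.58) lies above and Atp6v0d2 (-4.40) below the cloud of other genes, and the remaining 8 lie between the dotted lines.

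Of the resorptive enzyme genes, Acp5 had a lower signal on the array labelled HuR-deficient, and Ctsk was below the floor on both arrays. Acp5, which encodes tartrate-resistant acid phosphatase, the stain by which osteoclasts are recognised, read 8.31 on the wildtype array and 7.44 on the other. Its difference of -0.87, 1.83-fold lower and 2.91 times the robust SD of genes of like signal, ranked 210th from the lowest. Ctsk, the cathepsin that cuts bone collagen, read 4.25 and 3.55, both under the floor, and its difference of -0.70 therefore gives no level above background on either array. Among other cathepsin genes, Ctsb read 10.42 and 9.33, a difference of -1.09 that passed 2-fold, while Ctsd differed by -0.42, Ctss, the gene next to Ctsk, by -0.24 and Ctsl by -0.10.

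**Figure D3:**
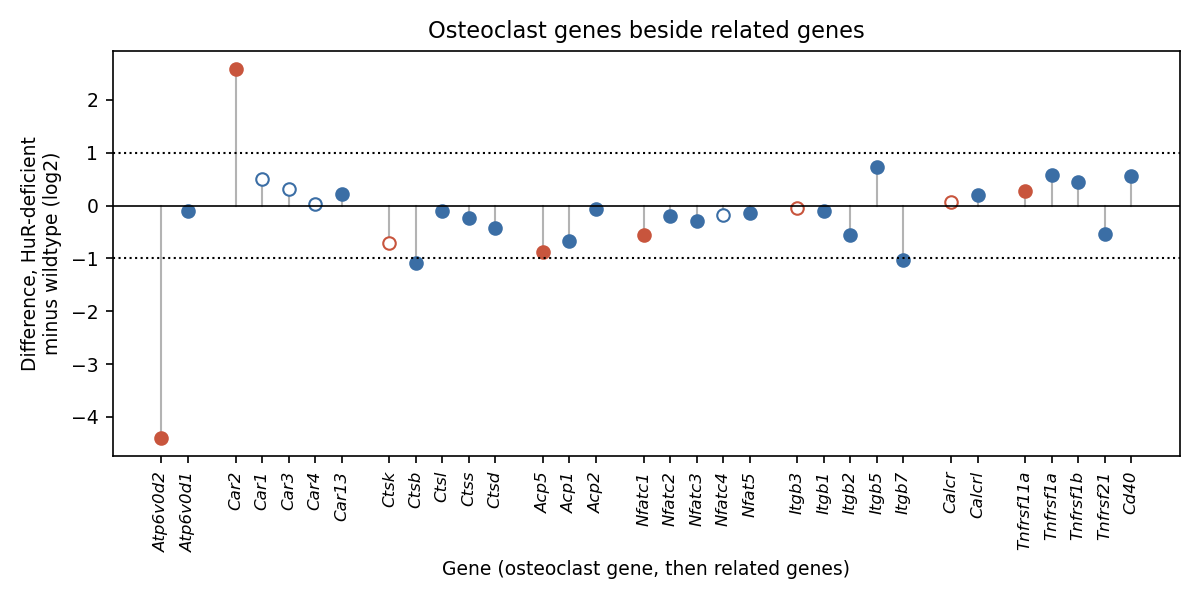
Difference between the arrays (vertical axis, log2, HuR-deficient minus wildtype) for 8 of the osteoclast genes (red) and genes related to each by family or enzyme activity (blue), with open symbols for genes below the floor on both arrays and dotted lines at 2-fold. Atp6v0d2 (-4.40) stands apart from Atp6v0d1 (-0.10) and Car2 (2.58) from Car13 (0.21). Nfatc1 (-0.56) and its relatives lie on the same side of 0, the relatives by less than the robust SD of genes of like signal.

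The wider osteoclast pathway was described with 6 further lists holding 119 distinct genes, of which 114 were measured and 98 passed the floor. None of the 98 was at least 2-fold higher and 6 were at least 2-fold lower (6.12%), where 1.99% of all genes passing the floor reached 2-fold in either direction. Since the lists, too, were chosen with earlier results of these data known, the count is not read against that share. The median difference over the 114 was -0.06, with 48 above 0 and 65 below. The 6 lower genes were Cd200r1, Sirpb1a, Pirb, Cd9, Ctsb and Itgb7, of which the first 4 encode surface proteins of the immunoglobulin or tetraspanin families. Among them, Cd200r1 passed the floor only through its wildtype signal, and the probe sets of Cd9 disagree.

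Signalling downstream of RANK and of the M-CSF receptor showed no gene at 2-fold. Among all genes passing the floor 1.99% reached 2-fold, so none in a list this short says little about the pathway. Of 26 measured genes 20 passed the floor, with a median difference of 0.06 over the 26. Csf1, which encodes the growth factor M-CSF, differed by 0.91, its wildtype signal of 3.81 being under the floor. The NF-kappaB gene Nfkb2 differed by 0.61 and the kinase gene Src, needed for the resorbing membrane, by 0.48. Among those passing the floor, Creb1 (-0.51), Jun (-0.50) and Map3k7 (-0.18) lay lowest. The 2 probe sets of Jund disagreed, the stronger differing by 0.19 and the weaker by -0.42. The AP-1 gene Fos, which acts upstream of Nfatc1, read 5.43 and 5.37, and the M-CSF receptor gene Csf1r 6.67 and 6.61. The lineage transcription factor gene Spi1, which encodes PU.1, read 8.32 and 8.65, and Mitf 6.31 and 6.27.

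Costimulatory receptors pair with the adaptors Tyrobp (DAP12) and Fcer1g to raise the calcium that activates NFATc1. Of the 11 genes of this list that passed the floor, of 13 measured, 10 had a negative difference, and the median over the 13 was -0.15. Among all 11905 genes passing the floor, 5783 had a negative difference. Several of the 10, such as Ppp3ca, Tyrobp and Fcer1g, differed by less than the robust SD of genes of like signal. The list was chosen with earlier results known, so the count is not read against that share. Sirpb1a, a receptor that signals through DAP12, was the one at 2-fold, 3.75-fold lower (-1.91). Other Sirpb1 genes are close to it in sequence, so its probes may not read this gene alone. The kinase genes Tec (-0.41) and Btk (-0.37) followed, and Plcg2 (0.23) was the gene above 0. Tyrobp read 12.43 and 12.37 and Fcer1g 11.66 and 11.59, while the receptor gene Trem2 differed by -0.30. Oscar, another of these receptors, was below the floor on both arrays.

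Among genes that restrain osteoclast formation, all 13 measured passed the floor, with a median difference of -0.09. Pirb, an inhibitory receptor gene, was 2.68-fold lower (-1.42), and the genes of the inhibitor of differentiation Id2 (-0.74) and of the NF-kappaB brake Tnfaip3 (-0.61) followed. Irf8, a transcription factor gene whose product blocks NFATc1, differed by 0.98 (9.03 against 10.02), just short of 2-fold. A second and weaker probe set of Irf8 differed by 0.19. Tnfrsf11b, which encodes osteoprotegerin, the decoy for the RANK ligand, differed by 0.21 around the floor.

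The resorption list had 22 of 24 genes above the floor, none at 2-fold in either direction, and a median of -0.06. With 1.99% of all genes passing the floor at 2-fold, none among so few says little about the list. Besides the pump genes given above, Slc9b2, a sodium-proton exchanger gene of osteoclasts, differed by -0.77 (5.03 against 4.26), the second value below the floor. On the other side, the brain-type creatine kinase gene Ckb differed by 0.90 (6.46 against 7.37). Snx10, a sorting nexin that osteoclasts need for acid secretion, differed by 0.57 and the metalloproteinase gene Mmp14 by 0.55. The wildtype signal of Mmp14, 4.24, was below the floor. Cst3, a secreted inhibitor of cathepsins, read 12.96 and 12.92.

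The fusion list, apart from Dcstamp and Ocstamp, had 12 of 14 genes above the floor and a median of -0.03. Cd200r1, a receptor whose ligand CD200 has been linked to macrophage fusion, read 6.15 and 3.42 (-2.73), the second value below the floor. The tetraspanin gene Cd9 read 10.26 and 9.11 (-1.15), but its weaker second probe set differed by 0.09, so the 2 probe sets disagree. Siglec15 and Adam8, whose products promote fusion, differed by 0.30 each, and P2rx7 by -0.44.

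**Figure D4:**
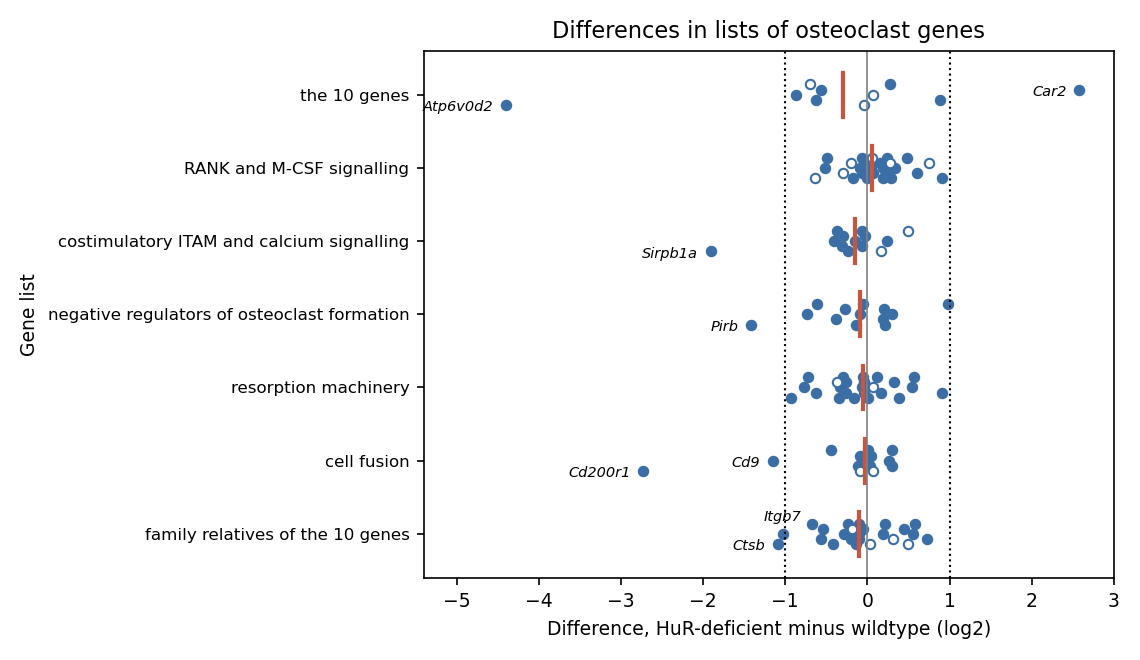
Difference between the arrays (horizontal axis, log2, HuR-deficient minus wildtype) of every measured gene in the 7 lists, with filled points for genes passing the floor, open points for the others, a red bar at each list's median and dotted lines at 2-fold. Genes past 2-fold that passed the floor are named, and Car2 is the one on the higher side. The list medians lie between -0.30 and 0.06.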

How the data were processed

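Per the labels, RNA of 2 RAW264.7 cultures was labelled with biotin and measured on Affymetrix arrays. The authors deposited log2 values per probe set; the submitters' processing notes name RMA, with version and build not given in the sources used here. A log2 scale was read from the range of the values, 0.434 to 13.8. RMA brings the 2 arrays close to one signal distribution and compresses weak signals. The medians over all probe sets were 4.08 (wildtype array) and 4.10 (the other array). Neither scanner files nor detection calls were used.

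Of 41345 probe sets, 23521 had 1 gene symbol, 1814 several and 16010 none; those with 1 symbol were used, and the probe set with the highest mean signal stood for a gene. No p-value was computed, since each group had 1 array. Genes were counted at 2-fold if the higher signal reached 4.38. The members and lists were chosen with earlier results of these data known. Named genes were the 10 members, up to 3 genes at each end of every list (not all are printed), every list gene past 2-fold, the members' nearest genes in the order of differences, and Elavl1; other list genes and genomic neighbours were named after their values were seen. Counting was tested on simulated data. Promoter windows came from RefSeq (GRCm38.p6). Work was done in Python 3.11.15 with pandas 2.3.3, numpy 2.4.6 and statsmodels 0.14.6; plots used matplotlib 3.10.9.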

Additional observations from a re-analysis of the deposited data

How the results depend on the processing

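Quantile normalisation of the 2 columns and subtraction of a loess trend (span 0.3) moved each of the 10 genes by less than the robust SD of genes of like signal. Atp6v0d2 stayed between -4.41 and -4.39 and Car2 between 2.58 and 2.60. Centring by the median difference and averaging of probe sets could not move the 10 genes. That median was 0 over all probe sets, and each of the 10 genes has 1 probe set. When both arrays had to reach the floor, Atp6v0d2 dropped out, which left 0 of the 10 genes 2-fold lower and a median of -0.14; of all genes, 55 were then higher and 76 lower, and of the fusion genes 1 was lower. With no floor, 185 genes were higher and 232 lower, and with the floor raised by 1 log2 unit 67 were higher. At 3-fold, 22 genes were higher and 33 lower, with 0 of the negative regulators, 0 of the related genes and 1 of the fusion genes lower. At 1.5-fold, 648 genes were higher and 633 lower, and 2 of the 10 genes were higher and 3 lower; 2 RANK and M-CSF signalling genes, 1 negative regulator, 1 resorption gene and 1 related gene were higher, and 3 negative regulators and 4 resorption genes lower. Averaging probe sets left 1 fusion gene lower, since the 2 of Cd9 disagree. With 1 array per group no replicate could be left out. No paired analysis was possible because each group has 1 array. The number of arrays limits the precision of every value, and weak signals cannot be told from background.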

Other observations

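Genes beside the 10 osteoclast genes in the RefSeq gene order were looked at, 4 measured protein-coding genes for each, a choice made after the values were seen. Of these 40 neighbours 20 passed the floor, with a median difference of -0.26, and none was at least 2-fold higher. The 2 that were at least 2-fold lower, Gm9733 and Sirpb1a, both lie beside Car2, whose own difference was 2.58. Around Atp6v0d2, the ligase gene Wwp1 differed by -0.28 and Ggh, which encodes gamma-glutamyl hydrolase, by -0.95 (7.75 against 6.80), while Slc7a13 and Ttpa were below the floor on both arrays. Beside Ocstamp, Zfp334 differed by -0.66 and Trp53rka by -0.36, opposite in sign to the 0.88 of Ocstamp. The signal of Zfp334 on the array labelled HuR-deficient, 4.03, was below the floor. Next to Acp5 (-0.87), Elof1 differed by 0.21 and Pigyl by 0.48.

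The macrophage marker gene Adgre1 read 4.94 on the wildtype array and 6.51 on that labelled HuR-deficient (1.57), the one macrophage marker of the 10 passing the floor to reach 2-fold. The other 9 differed by between -0.33 and 0.33. Whether the differences of the osteoclast genes go with that of Adgre1 was not tested.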
